A study of Homo sapiens with 4 samples.

Results

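Lost anchors were the 5 kb ends of H3K27ac-associated loops that 2 or more loops used in WT M14 melanoma cells and that had no counterpart in the loop list from STAG2-KD cells. An anchor was lost when no STAG2-KD anchor started within 10 kb of its own start. By this rule 1093 anchors were lost, of 11139 WT anchors with 2 or more loops and 22955 WT anchors in all. They were chosen by comparing the same lists that are described here. Their absence from the STAG2-KD list, and every measure that uses STAG2-KD anchors, is therefore a description without a test. The other sets served for comparison. Kept anchors were the 9280 WT anchors with 2 or more loops whose own bin was an anchor in the STAG2-KD list. Moved anchors were the 766 with a STAG2-KD anchor 5 or 10 kb away. Gained anchors were the 992 anchors that the mirrored rule took from the STAG2-KD list.

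M14 is a human melanoma cell line, and both groups expressed the same shRNA construct against STAG2, which doxycycline switches on. STAG2-KD cells were grown with doxycycline for 5 days and WT cells without it, so the knockdown and the drug cannot be told apart. The labels give 2 samples per group, of which the first carries the loop list used here, so that each group had 1 list. There were 27289 WT loops and 25621 STAG2-KD loops on chromosomes 1 to 22, given as positions without read counts, so the read depth behind a loop is unknown. With 1 list per group there is no replicate check and no p-value. The 95% intervals cover counting error only, and they treat anchors as independent although neighbouring anchors share loops. Starts of 7 of 8 melanocyte marker genes had a WT loop, against 1 of 4 keratinocyte, 1 of 4 fibroblast and 2 of 4 immune markers.

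Cohesin is a ring-shaped protein complex that extrudes chromatin loops and holds distant sites together. STAG2 and its paralog STAG1 are alternative subunits of the ring, and CTCF bound to its motif halts extrusion and so fixes many loop ends. H3K27ac, the acetylated form of lysine 27 on histone H3, marks active promoters and enhancers. HiChIP ligates chromatin ends that lie close together and enriches them with an antibody, here against H3K27ac, so a loop anchor is an acetylated site or the site it touches.

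Sequences of lost anchors are shown for the features that recur in the results. A strict core of the CTCF motif was matched on both strands of GRCh37, the build of the lists. It occurred in 35 lost anchors. Of these, 4 are printed because they differ in the side to which their loops ran, each as 40 bases on the strand of the match with the core in capitals. The first lay in an intron of HPSE2 (chr10:100424386-100424425, minus strand) and the second in DGLUCY (chr14:91639655-91639694, minus strand). The third lay between genes and was joined to PAX3 (chr2:222922132-222922171, plus strand), and the fourth lay between genes on chromosome 1 (chr1:87758783-87758822, plus strand).
HPSE2 anchor: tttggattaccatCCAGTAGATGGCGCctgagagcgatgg
DGLUCY anchor: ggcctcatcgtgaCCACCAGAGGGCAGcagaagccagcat
PAX3-linked anchor: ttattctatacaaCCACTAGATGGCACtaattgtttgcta
chromosome 1 anchor: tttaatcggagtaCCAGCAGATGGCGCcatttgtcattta

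A match on the plus strand usually marks the left end of a loop and a match on the minus strand its right end. All 6 loops of the HPSE2 anchor and all 5 loops of the DGLUCY anchor ran to the left, the side their minus-strand matches face. All 3 loops of the PAX3-linked anchor ran to the right, the side its match faces. All 3 loops of the chromosome 1 anchor ran to the left, away from the side its match faces.

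Promoters are printed for 4 genes whose annotated main (canonical) start lay in a lost anchor, as the 250 bases before the start read 5′ to 3′ from GRCh37. DCT (chr13:95131937-95132186, minus strand) is shown with the E-box letters CATGTG in capitals, NR4A3 (chr9:102583917-102584166, plus strand) with TGACG, the first part of a cyclic AMP response element, NCAPG (chr4:17812352-17812601, plus strand) with TTCCCGC, letters of an E2F site, and MAFG (chr17:79885612-79885861, minus strand) with the E-box CACGTG. Letters were searched on both strands, so a reverse complement is also in capitals. TGACG is contained in the full element TGACGTCA, and CATGTG and CACGTG are both forms of the E-box CANNTG.
DCT: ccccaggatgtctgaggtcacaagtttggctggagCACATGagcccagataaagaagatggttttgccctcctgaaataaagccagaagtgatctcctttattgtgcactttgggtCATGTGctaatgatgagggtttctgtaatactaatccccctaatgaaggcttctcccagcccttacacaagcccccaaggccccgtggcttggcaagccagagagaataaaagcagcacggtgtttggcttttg
NR4A3: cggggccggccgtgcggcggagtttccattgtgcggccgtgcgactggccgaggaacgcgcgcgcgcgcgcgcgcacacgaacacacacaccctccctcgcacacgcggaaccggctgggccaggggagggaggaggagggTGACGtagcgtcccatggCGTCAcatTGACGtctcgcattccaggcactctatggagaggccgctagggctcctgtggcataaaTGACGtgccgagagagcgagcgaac
NCAPG: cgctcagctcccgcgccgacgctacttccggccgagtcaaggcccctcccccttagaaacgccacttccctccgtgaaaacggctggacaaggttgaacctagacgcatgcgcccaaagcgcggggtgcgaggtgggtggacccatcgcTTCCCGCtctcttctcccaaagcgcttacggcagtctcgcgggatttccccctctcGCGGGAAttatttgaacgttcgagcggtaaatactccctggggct
MAFG: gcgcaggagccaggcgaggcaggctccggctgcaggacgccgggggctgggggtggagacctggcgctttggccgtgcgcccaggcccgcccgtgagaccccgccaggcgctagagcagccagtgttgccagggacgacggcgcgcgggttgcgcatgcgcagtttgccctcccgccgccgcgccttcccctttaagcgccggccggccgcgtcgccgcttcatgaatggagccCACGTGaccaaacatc

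The share of promoters with these letters is given for the 218 canonical protein-coding promoters at lost anchors, for those at kept anchors and for all 18978. CATGTG occurred in 6.42% of the lost promoters (3.56 to 10.5), 4.83% of the kept ones and 7.08% of all. CACGTG occurred in 10.6% of the lost promoters (6.81 to 15.4), 10.6% of the kept ones and 7.85% of all. TGACG occurred in 29.4% of the lost promoters (23.4 to 35.9), 32.9% of the kept ones and 25.2% of all. TTCCCGC occurred in 7.34% of the lost promoters (4.25 to 11.6), 9.49% of the kept ones and 7.47% of all. For each of the 4 the kept and the overall share lay within the interval of the lost share. A match says only that the letters are there.

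The 1093 lost anchors were 9.81% of the WT anchors with 2 or more loops (9.27 to 10.4), which is the background rate of the rule. The mirrored rule took 9.45% of the STAG2-KD anchors with 2 or more loops (8.89 to 10.0). The shares differed by 0.37 percentage points with an interval that spans 0 (-0.42 to 1.15). When the WT list was cut by position to the number of STAG2-KD loops on each chromosome, which changes both its length and which loops it holds, 8.95% of WT anchors were lost and 10.6% of STAG2-KD anchors were gained.

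Lost anchors were mostly weakly connected in WT cells. Of the 1093, 768 had exactly 2 loops (70.3%), 203 had 3, 74 had 4 and 30 had 5. Of all 11139 WT anchors with 2 or more loops, 4441 had exactly 2. Moved (69.3%) and gained anchors (70.8%) had shares with exactly 2 loops like that of lost anchors, and kept anchors had 33.9%. The share of WT anchors absent from the STAG2-KD list fell from 34.8% among anchors with a single loop to 17.3% at 2 loops, 8.51% at 3 loops, 5.02% at 4 loops and 0.529% at 7 or more. STAG2-KD anchors followed the same course in the other direction, from 30.1% at 1 loop to 16.5% at 2 loops and 0.816% at 7 or more. The plot of absence by number of loops shows both curves. Comparisons with kept, moved and gained anchors below are therefore matched on the number of loops, weighted to the loop numbers of the lost anchors, wherever this is stated.

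**Figure D1:**
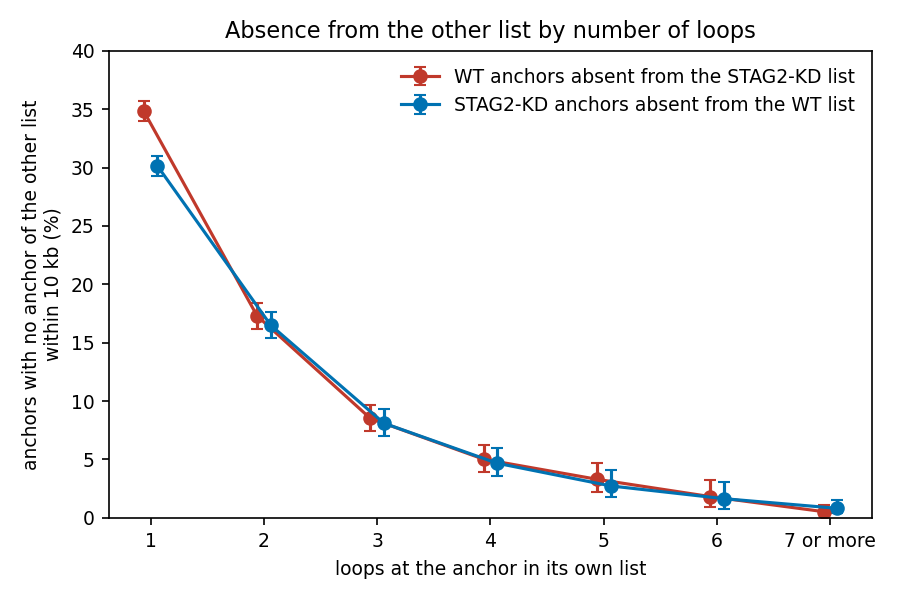
Percent of anchors with no anchor of the other list within 10 kb (y axis) against the number of loops at the anchor in its own list (x axis), for WT anchors in red and STAG2-KD anchors in blue. Bars are 95% exact binomial intervals, and both curves fall from above 30% at 1 loop to under 1% at 7 or more loops.

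For most lost anchors the next STAG2-KD anchor was not far away. The median distance to it was 35 kb (quartiles 20 and 80 kb). It was 15 kb, the nearest step that the rule allows, for 204 lost anchors, and more than 100 kb for 232 (21.2%). Just outside the rule lay 231 WT anchors with a STAG2-KD anchor at 10 kb, 535 with one at 5 kb, and 4114 absent anchors with a single WT loop. The share lost ran from 4.43% on chromosome 19 (2.79 to 6.63) to 18.5% on chromosome 4 (13.7 to 24.0), and chromosomes 13 (17.1%) and 9 (16.5%) were also high. STAG2-KD anchors were sparse on chromosome 4 (2.78 per Mb) and dense on chromosome 19 (15.4 per Mb). The share of gained anchors ran from 6.20% on chromosome 19 to 15.1% on chromosome 9, and was 13.3% on chromosome 4.

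Lost anchors held fewer promoters than kept anchors. An annotated transcript start lay in 371 lost anchors (33.9%, 31.1 to 36.8), against 49.6% of kept anchors (48.6 to 50.6). Matched on the number of loops, the difference was -14.5 percentage points (-17.5 to -11.4). It was -11.3 points at 2 loops, -20.6 at 3 loops and -26.2 at 4 loops, and every interval lay below 0. Among anchors with 2 loops the lost share was lower on 16 of 22 chromosomes and higher on 6. For canonical starts of protein-coding genes, 17.0% of lost anchors held one and the matched difference from kept anchors was -13.2 points (-15.5 to -10.5).

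The low promoter share was not particular to lost anchors. Moved anchors held a start in 33.0%, a matched difference of 0.80 points (-3.58 to 5.09), and gained anchors held one in 29.7%, 4.27 points fewer than lost anchors (0.27 to 8.21). Canonical protein-coding starts were also more frequent at lost than at gained anchors, by 5.67 points (2.65 to 8.66). The plot of promoter share by number of loops shows the 4 sets. Lost anchors lay in sparser neighbourhoods than kept anchors, with a median of 4 other WT anchors within 100 kb against 6. At 2 loops the medians were 4 and 5. Moved anchors had a median of 7, and gained anchors had 4 other STAG2-KD anchors within 100 kb. The rule bars a STAG2-KD anchor within 10 kb, so it favours sparse places. Mean GC content was 44.03% (SD 6.52) at lost and 46.3% (SD 6.51) at kept anchors. Matched also on the number of WT anchors within 100 kb, a setting chosen after seeing the data, the promoter difference from kept anchors was -17.1 points.

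**Figure D2:**
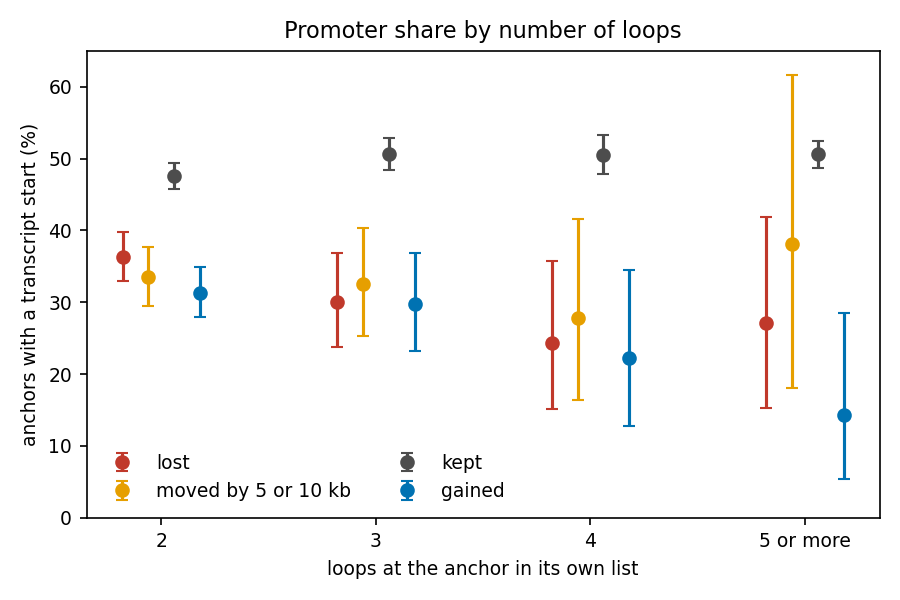
Percent of anchors with an annotated transcript start (y axis) by number of loops in the anchor's own list (x axis) for lost, moved, kept and gained anchors, with 95% exact binomial intervals as bars. Kept anchors lie between 47.6% and 50.6% at every number of loops, and lost anchors between 24.3% and 36.3%.

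The other lost anchors lay in introns of protein-coding genes (24.8%), between genes (19.9%), in exons without a start (11.5%) and in bodies of non-coding genes (9.79%). Intergenic sites were more frequent than among kept anchors by 7.04 points, matched (4.67 to 9.71), while introns differed by 2.47 points with an interval that spans 0 (-0.17 to 5.37). The intergenic share was not particular to lost anchors. Its matched difference was 3.49 points from moved anchors (-0.15 to 6.94) and -2.26 points from gained anchors (-5.77 to 1.23). Among the 371 lost anchors with a start, 290 had a start of a protein-coding gene, 52 only starts of long non-coding RNAs and 29 only others.

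In all, 329 protein-coding genes had a start in a lost anchor, 6.96% of the 4728 genes with a start at a WT anchor with 2 or more loops. For 218 of them it was the canonical start. No start of 264 of the 329 genes (80.2%) lay in any STAG2-KD anchor bin. The rule already bars a STAG2-KD anchor at the lost start, so only genes with a start elsewhere could have one. The same share over all 4728 genes was not computed, so 80.2% is not read as a trait of these genes. Of 331 genes in 15 lists that cover melanocyte identity, signalling, cell cycle and adhesion, 135 had a start at a WT anchor with 2 or more loops and 6 of these (4.44%) had one at a lost anchor. They were DCT, LRP6, CTNNB1, CCNE2, ROBO1 and NR4A3. This share lay below the 6.96% over all genes, and with 6 genes it is only a count. No gene of the lists for AP-1 subunits, interferon, cohesin and CTCF, ERK signalling, receptor tyrosine kinases, TGF-beta, YAP and TEAD, adhesion, survival or neural crest factors had one. Each of these lists had only 4 (cohesin and CTCF, receptor tyrosine kinases) to 14 (interferon) genes at a WT anchor with 2 or more loops. With so few genes a count of 0 cannot be told apart from the 6.96% over all genes.

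DCT, dopachrome tautomerase, makes an intermediate of melanin synthesis. Its canonical start lay in a lost anchor (chr13:95130001-95135000) with 3 WT loops and 0 STAG2-KD loops. All 3 loops ran to the right, over 35, 80 and 105 kb. All 3 partner bins remained anchors, with 5, 3 and 8 loops in WT and 3, 1 and 4 loops in STAG2-KD. Here and below, the WT loops of a partner include those to lost anchors, which the rule removes, unless stated otherwise. DCT was the only melanocyte marker of 8 that started in a lost anchor. The other markers had 0 to 7 WT and 0 to 7 STAG2-KD loops, and all 8 together had 31 WT loops against 23 after knockdown.

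NR4A3, an orphan nuclear receptor of the immediate early response, lost an anchor with 4 WT loops over its canonical start (chr9:102580001-102585000). Its nearest STAG2-KD anchor was 255 kb away. The loops spanned 90 to 610 kb, and the farthest partners held the starts of ALG2 and SEC61B to the left and of MSANTD3 to the right. Each of these partner bins had 1 loop in STAG2-KD cells. LRP6, a WNT co-receptor, lost an anchor over its canonical start with 2 WT loops of 25 and 50 kb. CCNE2, which encodes the G1 cyclin E2, lost a 2-loop anchor whose partners held starts of INTS8 and NDUFAF6.

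For CTNNB1, the gene of beta-catenin, and ROBO1, a receptor for Slit guidance proteins, the lost anchor held an internal start. The canonical CTNNB1 bin had 0 WT loops and 1 STAG2-KD loop, so the lost anchor was not at its main promoter. ROBO1 had 11 WT loops and 6 STAG2-KD loops at its annotated starts, and its lost anchor was joined to another ROBO1 start 305 kb away that had 8 WT and 6 STAG2-KD loops.

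Regardless of the lists, 23 protein-coding genes started at lost anchors with 4 or more loops. The anchor between DCAF16, a substrate receptor of a ubiquitin ligase, and NCAPG, a condensin subunit, held both canonical starts and had 6 WT loops and 0 STAG2-KD loops. Its partners included the starts of QDPR, LAP3, MED28 and LCORL, at 320, 230, 195 and 210 kb. The QDPR bin had 7 WT and 2 STAG2-KD loops and the MED28 bin 3 and 1. Both WT counts include loops to more than 1 lost anchor, so part or all of these drops was set by the rule. Canonical starts of PCDH7, a protocadherin, of CDC5L, a splicing factor, and of TSPO, a mitochondrial outer membrane protein, each had 5 WT loops. Those of CDK19, a Mediator kinase, of SEC16A, which organises exit sites of the endoplasmic reticulum, of ABCA2, a lipid transporter, and of ABHD11 each had 4. All of these starts had 0 STAG2-KD loops. The CDC5L anchor was joined to HSP90AB1, NFKBIE, AARS2 and TMEM63B starts, all to its left. MTRR, PYGL and MSRB2 lost an internal start with 4 or 5 loops and had no STAG2-KD loop at any annotated start. CSTPP1, DMKN, KRTDAP and FAM209A lost a start other than the canonical one with 4 loops and also had no STAG2-KD loop. RTF2 and DGLUCY lost such a start with 4 and 5 loops, and had 1 and 3 STAG2-KD loops at other starts.

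The lost anchors with the most loops are described by 12 examples, the 7 with 7 or more loops and 5 of the 11 with 6 loops, taken by larger summed loop distance. Between them they had 90 WT loops, and 60 of the partner positions were anchors in the same bin of the STAG2-KD list. Only the NCAPG and DCAF16 anchor held a protein-coding start. A further 3 held starts of non-coding transcripts, 3 lay in introns, 4 in bodies of non-coding genes and 1 between genes.

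**Figure D3:**
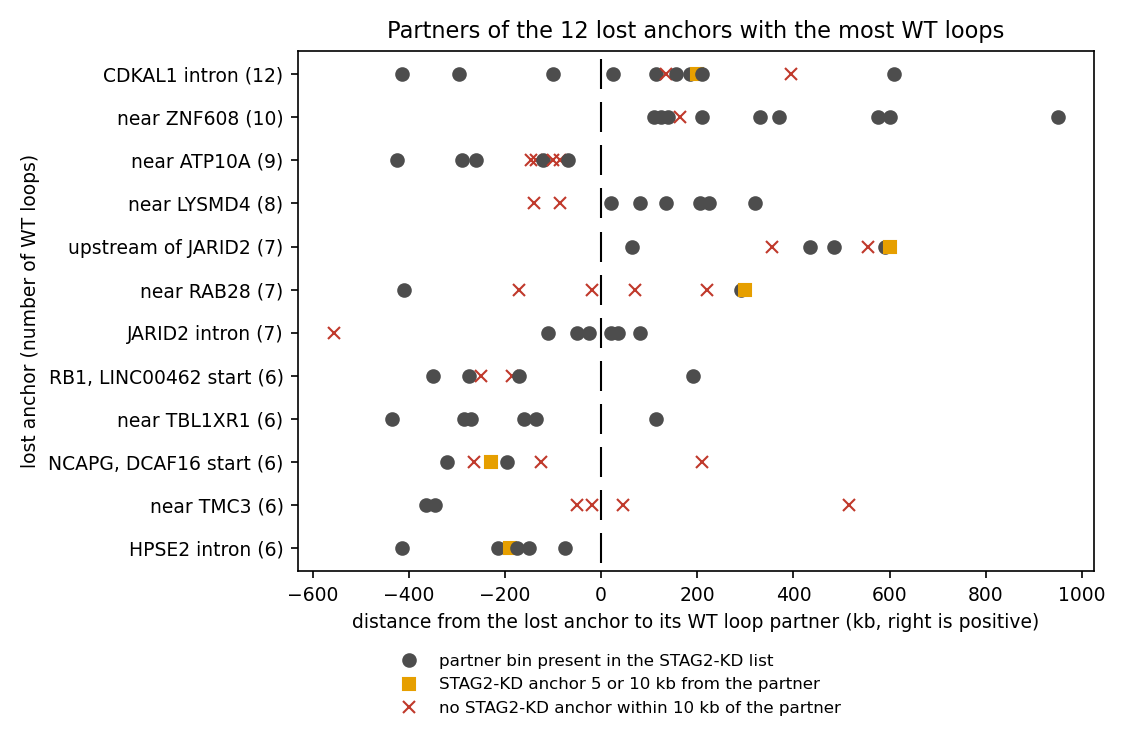
Each row is 1 of 12 lost anchors with the most WT loops (loop number in brackets, ties at 6 loops taken by larger summed distance), and each mark is a WT partner at its signed distance in kb (x axis), in grey where the partner bin was a STAG2-KD anchor, in orange where one lay 5 or 10 kb away and as a red cross where none lay within 10 kb. The CDKAL1 intron had 12 partners, of which 9 are grey. The anchor near RAB28 lay 220964 bp from the canonical start of that gene and had 7 partners, of which 2 are grey.

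The best connected lost anchor lay in an intron of CDKAL1, which encodes a tRNA-modifying enzyme, at chr6:20975001-20980000. It had 12 WT loops, 3 to the left and 9 to the right, over 25 to 610 kb. Its nearest STAG2-KD anchor was 25 kb away. Of its 12 partners, 9 remained STAG2-KD anchors, and 8 of these 9 had fewer loops there than in WT, as from 11 to 4 loops and from 8 to 1 loop. The partner 610 kb away had 6 loops in WT and 7 in STAG2-KD.

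The next lost anchor (chr5:123870001-123875000) had 10 WT loops, all to the right, over 110 to 950 kb. It lay 207332 bp from the canonical ZNF608 start and overlaps the start of a non-coding transcript. Of its partners, 3 held ZNF608 starts. One of these 3 was itself lost. The main ZNF608 partner, 210 kb away, had 15 WT and 18 STAG2-KD loops. An anchor in the non-coding gene LINC02346 (chr15:26175001-26180000) sent all 9 loops to the left into ATP10A and beyond, and 6 of these partners had no other WT loop. JARID2, a cofactor of Polycomb repressive complex PRC2, was touched by several lost anchors. One in its intron (chr6:15365001-15370000, 7 loops) and one upstream of the gene (chr6:14810001-14815000, 7 loops) were joined to each other over 555 kb. The upstream anchor and its lost neighbour (chr6:14825001-14830000, 4 loops) also both reached a JARID2 start, 435 and 420 kb away, which had 11 WT and 10 STAG2-KD loops.

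The HPSE2 intron anchor (chr10:100420001-100425000), with the CTCF core printed above, sent 6 loops left over 75 to 415 kb. One reached the start of HPS1, a gene of melanosome and lysosome formation, whose bin had 12 WT and 4 STAG2-KD loops. The lost anchor at the start of LINC00462, within the annotated RB1 locus, (chr13:49155001-49160000) had 6 loops, with LPAR6 and ITM2B starts among its partners. Of its partners, 4 of 6 had no other WT loop. Partners also differed between the anchors near LYSMD4 (8 loops), RAB28 (7), TBL1XR1 (6) and TMC3 (6). These anchors are named by the nearest canonical protein-coding start, which lay 153447 to 429731 bp away. All 6 partners of the anchor near TBL1XR1 remained anchors and 4 of them had more loops in STAG2-KD, while only 2 of the 7 near RAB28 remained and none of those 7 partners had another WT loop.

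Most lost anchors had no other lost anchor close by. Joining those whose starts lay within 25 kb gave 981 single anchors, 51 pairs, 2 groups of 3 and 1 group of 4. The same counts for kept, moved or gained anchors were not computed, so they are not read as a trait of lost anchors. The group of 4 (chr17:79850001-79890000) covered a stretch of promoters. It held starts of ANAPC11, a subunit of the anaphase-promoting complex, of PCYT2, an enzyme of phosphatidylethanolamine synthesis, of SIRT7, a nuclear deacetylase, and of MAFG, a small MAF factor. The anchors had 3, 2, 2 and 2 WT loops. Their partners outside the group held the starts of ARHGDIA, CENPX, LRRC45, CCDC137, OXLD1 and PDE6G, all in bins with 1 or 5 loops in STAG2-KD, against 4 or 13 in WT. Each of these WT counts includes loops to more than 1 lost anchor of the group, so part of the drop was set by the rule.

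A group of 3 lost anchors lay within MYO1D, which encodes an unconventional myosin (chr17:31095001-31125000, 4, 4 and 2 loops). A pair lay beside and over a start of TMEM98 (chr17:31235001-31255000, 6 and 4 loops). The groups were joined to each other by 5 WT loops of 125 to 155 kb and their nearest STAG2-KD anchors lay 20 to 50 kb away. Their common partners further left dropped from 10 to 1 loop and from 7 to 2 loops. These WT counts include loops to the lost anchors of both groups, so part of the drop was set by the rule. The other group of 3 lay between genes (chr5:39620001-39665000) with 5 loops, 2 of them within the group. The remaining 3 loops ended in a shared bin with 4 WT loops and none in STAG2-KD, where the nearest anchor was 5 kb away.

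The lost anchors farthest from any STAG2-KD anchor were an intron of PRDM9 (chr5:23450001-23455000, 3790 kb) and a pair in ANGPT1 on chromosome 8 (chr8:108415001-108420000, 2740 kb, and chr8:108315001-108320000, 2640 kb). Each had 2 WT loops of 20 to 150 kb, and none of their partners was a STAG2-KD anchor. The longest WT loop at a lost anchor spanned 1720 kb. It started in the non-coding gene HULC (chr6:8710001-8715000), and its far bin had 16 WT and 11 STAG2-KD loops.

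Lost anchors took part in 2556 WT loops, 9.37% of the list, of which 161 joined a pair of lost anchors. Counted from the lost anchors there were 2717 partner positions. The same bin was a STAG2-KD anchor for 64.5% of them (62.7 to 66.3), a STAG2-KD anchor lay 5 or 10 kb away for 7.99%, and none lay within 10 kb for 27.5%. Every partner remained for 493 lost anchors (45.1%), some for 410 (37.5%) and none for 190 (17.4%). Kept anchors were compared over their loops that were missing from the STAG2-KD list. Over all such loops the partner bin was present in 62.6% (62.0 to 63.3) and absent within 10 kb in 20.8%. At 2 loops it was present in 69.02% for kept anchors (67.4 to 70.6) and in 65.4% for lost anchors (63.0 to 67.8), so the order turned with the number of loops. Gained anchors had values close to those of lost anchors, with 61.5% of partner bins in the WT list and 29.7% absent. The share present did not differ beyond its interval between lost anchors with a start (64.1%, 60.9 to 67.3) and without one (64.6%, 62.4 to 66.8).

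Promoter anchors tended to be joined to promoters. A transcript start lay in 55.5% of the partners of lost anchors with a start (52.1 to 58.8) and in 33.1% of the partners of lost anchors without one (30.9 to 35.3). At 2 loops, 44.01% of the partners of lost anchors (41.5 to 46.5) and 51.1% of the partners of kept anchors (49.8 to 52.3) held a start.

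The 1463 distinct partners that remained STAG2-KD anchors had on average 5.31 WT loops (SD 4.05), of which 4.11 (SD 3.91) went to anchors that were not lost. They had 3.63 STAG2-KD loops (SD 3.39). Against their WT loops to other anchors, 485 partners had more STAG2-KD loops, 637 had fewer and 341 had the same number. Loops that passed over a lost anchor without touching it had a median number of 2 in WT and 1 in STAG2-KD. Moved anchors had medians of 5 and 4, and kept anchors 3 in both lists. No loop passed over 33.4% of lost anchors in WT and 44.5% in STAG2-KD.

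Among genes at the far end, 912 protein-coding genes had a start in a partner of a lost anchor, 12.1% of the 7509 with a start at any WT anchor. Of the list genes at any WT anchor, 29 of 195 (14.9%) had one. The highest counts were 4 of 10 for axon guidance (EFNA5, PLXNA1, PLXNC1 and ROBO1), 4 of 13 for the melanocyte list (MC1R, PAX3, SLC45A2 and TYRP1), 4 of 15 for WNT (APC, GSK3B, LEF1 and TLE1) and 4 of 16 for ERK signalling (EPHA2, ETV1, MAP2K1 and SPRY2). There were none of 10 for AP-1 subunits and none of 9 for receptor tyrosine kinases. These genes were named after their values were seen.

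Of all 2357 distinct partners of lost anchors, 1463 were STAG2-KD anchors. For each of the 29 genes 1 partner bin was taken, that with the most WT loops. Anchors with many loops were rarely absent, so this choice favours bins that remained. The count for the genes is therefore not comparable with that for all partners. All but 2 of the 29 bins were STAG2-KD anchors, the exceptions being APC and the canonical TYRP1 bin. Fewer STAG2-KD than WT loops were present at 20, more at 6 and the same number at 3. Set against the WT loops that did not go to lost anchors, 13 had fewer, 9 had more and 7 had the same number.

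PAX3, a transcription factor of the melanocyte lineage, was joined to 2 lost anchors, the CTCF-core anchor printed above at 240 kb and one at 360 kb on its other side. Its start bin had 4 WT loops and 7 STAG2-KD loops. MC1R, the melanocortin receptor, had 6 WT loops, 1 of them to a lost anchor 115 kb away, and 5 STAG2-KD loops. SLC45A2, a transporter of the melanosome, had 3 WT loops, 1 of them to a lost anchor 900 kb away, and 1 STAG2-KD loop. TYRP1, a melanin enzyme, was joined to a lost anchor 1140 kb away by the only loop of its canonical start bin, which had 0 after knockdown. Another TYRP1 start, joined to a lost anchor 25 kb away, had 1 loop in each list.

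SPRY2, a feedback inhibitor of ERK signalling, had 19 WT loops, 2 of them to lost anchors, and 13 STAG2-KD loops. SNAI2, a neural crest transcription factor, had 16 WT loops, 2 of them to lost anchors, and 8 STAG2-KD loops. MYC went from 25 to 25 loops, with 1 lost partner 355 kb away. STAG1, the paralog of the depleted subunit, was joined to a lost anchor 35 kb away and had 12 WT and 13 STAG2-KD loops. GSK3B, a kinase of the WNT pathway, went from 12 to 14 and TGFBR2, a TGF-beta receptor, from 3 to 4. STAT3 was the sole interferon pathway gene at a partner, with 6 WT loops, 1 of them to a lost anchor, and 5 STAG2-KD loops.

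**Figure D4:**
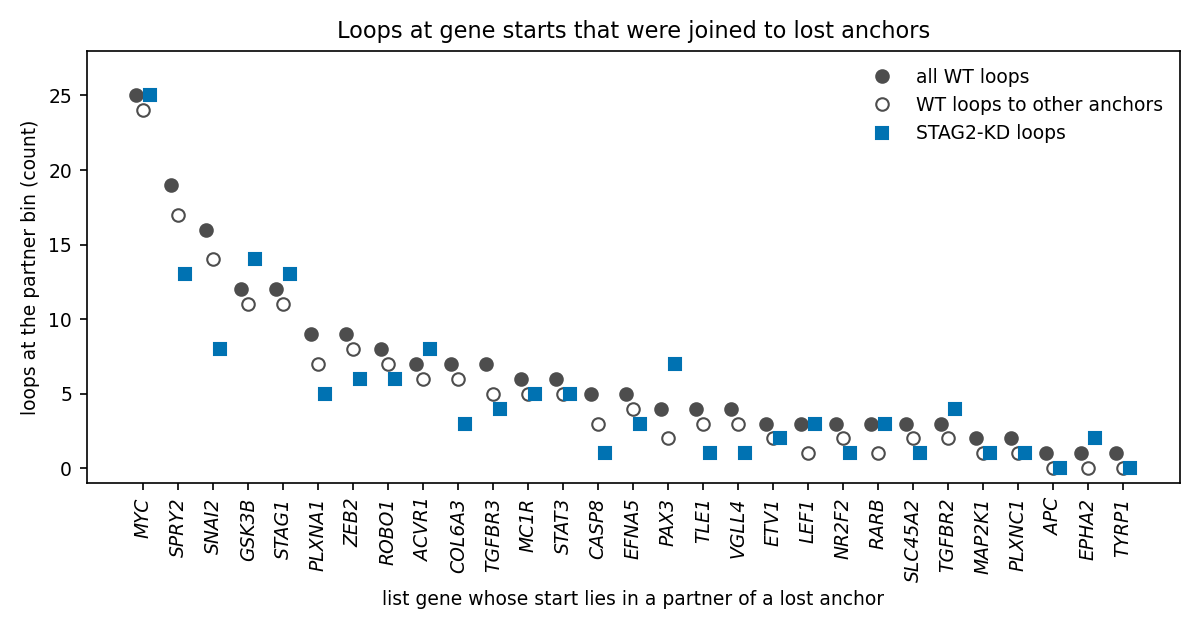
Number of loops (y axis) at the partner bin of each of 29 list genes joined to a lost anchor (x axis), in WT (filled circles), in WT without loops to lost anchors (open circles) and in STAG2-KD (blue squares), 1 list per group and no error bars. MYC has 25 loops in both lists, GSK3B 12 in WT and 14 in STAG2-KD, and SNAI2 16 and 8.

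Loops at lost anchors had a median distance of 90 kb (85 to 95, quartiles 45 and 175 kb). The comparison with kept anchors turned on the number of loops. Over all loops, those at lost anchors were shorter, with a median difference of -10 kb from the 100 kb of kept anchors (-15 to -5). Within a given number of loops the medians at lost anchors were higher, with intervals that reach 0 from 3 loops on. At 2 loops the median was 80 kb at lost and 70 kb at kept anchors, a difference of 10 kb (2.93 to 15), and it was longer at lost anchors on 18 of 22 chromosomes. At 3 loops the difference was 10 kb (0 to 21.2), at 4 loops 15 kb (0 to 40.5) and at 5 or more 2.5 kb (-15 to 20.7). A random loop of a 2-loop lost anchor was longer than one of a 2-loop kept anchor in 53.8% of pairs, ties shared.

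Loops at lost anchors were longer than those at gained anchors. The median difference was 15 kb over all loops (7.93 to 22.1) and 15 kb at 2 loops (3.82 to 22.1). Under 50 kb were 27.8% of loops at lost anchors (26.1 to 29.6) and 35.7% of those at gained anchors (33.8 to 37.6). Over 500 kb were 2.61% (2.05 to 3.28) and 4.15% (3.40 to 5.02), so gained anchors held more of both extremes. Moved anchors did not differ beyond the interval (5 kb, -2.07 to 12.1). Both loops of a 2-loop anchor ran to the same side in 64.2% of lost anchors (60.7 to 67.6), 60.2% of kept anchors (58.4 to 61.9) and 59.1% of gained anchors (55.4 to 62.8).

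**Figure D5:**
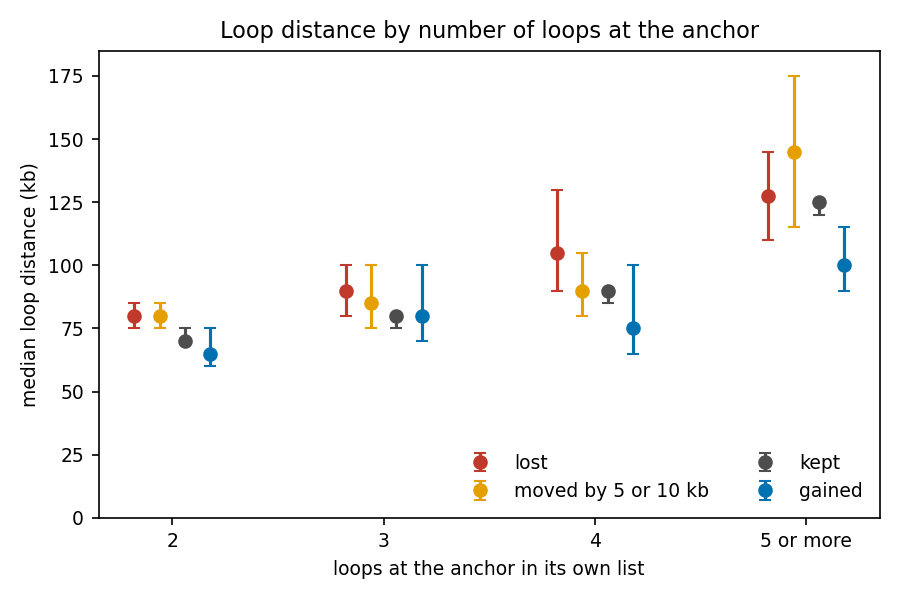
Median loop distance in kb (y axis) by number of loops at the anchor (x axis) for lost, moved, kept and gained anchors, with 95% order-statistic intervals as bars. At 2 loops the medians are 80 kb for lost, 80 kb for moved, 70 kb for kept and 65 kb for gained anchors.

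The CTCF core was no more or less frequent at lost anchors than at kept ones within its interval. A strict core lay in 3.20% of lost anchors (2.24 to 4.43) and 0.939% of all 5 kb windows of the genome, and the matched difference from kept anchors was 0.40 points (-0.55 to 1.83). With a looser core the order turned, with 38.9% of lost anchors, a matched 45.8% of kept anchors and 28.7% of all windows (difference -6.88 points, -9.97 to -3.67). This was not particular to lost anchors. The looser core lay in a matched 40.5% of moved anchors (difference -1.63 points, -6.15 to 2.84). For gained anchors it was 37.9% (0.96 points, -3.20 to 5.10). Loops ran to the side the strict match faces in 68.2% of 85 loops at lost anchors (57.2 to 77.9), 76.6% of 1130 at kept anchors (74.1 to 79.1) and 75.3% of 85 at gained anchors (64.7 to 84.0). All loops did so at 18 of the 35 lost anchors with a match, 134 of 271 kept and 19 of 32 gained ones. None did at 7 lost, 16 kept and 2 gained anchors. These counts are not matched on the number of loops, and most lost anchors had exactly 2.

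Letters of the AP-1 motif (TGANTCA), bound by FOS and JUN proteins, were less frequent at lost than at gained anchors. They were found in 79.5% of lost anchors and a matched 87.0% of gained anchors, a difference of -7.54 points (-10.7 to -4.33), with 1.63 copies per lost anchor (SD 1.34) and 2.21 per gained anchor (SD 1.60). Lost and kept anchors differed by -0.39 points (-3.14 to 2.06). The E-box CACGTG was found in 43.1% of lost anchors, 4.67 points above gained anchors (0.47 to 8.83) and -2.01 points from kept anchors (-5.16 to 1.22). Lost and gained anchors had a similar mean GC content, 44.03% and 43.7%. Of all 5 kb windows of the genome, 79.2% held TGANTCA, close to the share at lost anchors, and 35.7% held CACGTG.

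Loops of lost anchors stood later in the WT list. At 2 loops their median place was 64.1% of the way through the lines of a chromosome (62.0 to 65.8), against 52.9% for kept and 49.9% for moved anchors. The sources do not say how the lines are ordered, and the part of this order in the losses was not tested.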

How the data were processed

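HiChIP against H3K27ac was performed on M14 cells, with 4 samples in the labels, 2 per group, and 1 loop list per group. Per the study's methods, chromatin was cut with MboI, reads were aligned to hg19 with HiC-Pro, peaks were called with hichip-peaks and loops with FitHiChIP. Each deposited list holds genome positions of loops (hg19 coordinates, unit other) that the authors had already filtered. No read count, score or q-value is given, and whether the replicates were merged is not given in the sources used here.

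Anchors were 5 kb bins, present in the other list when an anchor started within 10 kb. Gene starts came from GENCODE release 44 mapped to GRCh37. Shares have 95% Clopper-Pearson intervals. Differences of shares have Newcombe intervals, weighted to the lost anchors' loop numbers, and medians have order-statistic intervals. No p-value was computed. Genes were named if they were in the lists and started at a lost anchor, or if they were among the first 20, by number of loops and then summed loop distance, of the 23 that started at lost anchors with 4 or more loops. Anchors were named if they were among the 12 with the most loops (ties by larger summed distance), the largest groups, the farthest from a STAG2-KD anchor or the longest loop. The members and lists were chosen with earlier results of these data known. Python 3.11.15, numpy 2.4.6, scipy 1.17.1 and matplotlib 3.10.9 were used.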

Additional observations from a re-analysis of the deposited data

How the results depend on the processing

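No paired analysis was possible because only 1 loop list stood for each group, and for the same reason no replicate could be left out and no stricter q-value could be set. Leaving out each of the 22 chromosomes in turn gave between 990 and 1080 lost anchors, a lost share between 9.60% and 10.1% and a promoter difference between -15.2 and -13.8 points. With 5 kb as the distance, or with an anchor at exactly 10 kb not counted as present, 11.9% of WT and 11.8% of STAG2-KD anchors were absent and 66.9% of partners were present. With 20 kb the values were 6.63%, 6.34% and 56.7%, the median loop distance was 100 kb and its difference from kept anchors 0 kb. With 1 or more loops, 5207 anchors were lost (22.7%, mirror 20.3%), the promoter difference was -10.9 points and 67.7% of partners were present. With 3 or more loops, 325 were lost (4.85%, mirror 4.64%), 28.3% held a start, the promoter difference was -22.3 points, the median distance 105 kb and its difference 0 kb. With the first lines of each chromosome, up to 50%, in both lists, the shares were 13.8% and 12.01%, 55.0% of partners were present and the CTCF difference was -0.91 points. With the WT list cut by position to the STAG2-KD length, they were 8.95% and 10.6%, so their order turned. Promoters of protein-coding transcripts only gave 20.7% and 4 list genes in place of 6, and starts within 5 kb of the anchor 53.3% and 12 list genes. The looser CTCF core gave -6.88 points. Among alternatives chosen after seeing the data, anchors with exactly 2 and exactly 3 loops each gave a distance difference of 10 kb, the reverse of the pooled sign, and counting each lost anchor once gave 82.6% with a partner present. The cause of these changes was not tested.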
